A study of Mus musculus with 32 samples.

Results

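The genes described here are the secreted and membrane-bound metalloproteases that cut the extracellular matrix, together with their tissue inhibitors. They were taken by name from the protein-coding genes of a RefSeq table of GRCm38.p6 as every Mmp, every Adamts and every Timp followed by a number, which gave 46 of 21887 genes: 23 Mmp, 19 Adamts and 4 Timp genes. The rule uses names alone, although the families were proposed with earlier results of these data known. Open chromatin was measured by ATAC-seq, in which a transposase inserts adapters into accessible DNA, in mouse embryonic fibroblasts (MEFs) and in cells made from them with the reprogramming factors c-Myc, Klf4, Oct4 and Sox2 (OSKM). A site was assigned to a gene when its centre lay in the gene body or within 50 kb of it, and a site near 2 members was counted once in every sum.

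There were 32 samples in 15 groups. CTCF shRNA was set against a control shRNA to luciferase (shLuci) in 5 populations: fibroblasts on day 0, Thy1+ cells sorted on days 3, 6 and 9, SSEA1-Thy1- cells and SSEA1+ cells each sorted on days 6 and 9, and GFP+ cells sorted on day 12. The sorted cells came from a TetOn lentivirus OSKM system. On day 10, unsorted OSKM cells carried CTCF overexpression with Smarca5 shRNA (oeCTCF+shSmarca5), CTCF overexpression (oeCTCF) or its control (oeControl), and on day 12 unsorted cells carried Smarca5 shRNA or the luciferase shRNA. The protocol names OG2 MEFs, which carry a GFP reporter of Oct4, and retroviruses for OSKM, CTCF and the shRNAs. The Thy1+, SSEA1-Thy1- and SSEA1+ lists each cover several sorting days, which cannot be told apart in them.

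Each group had 1 deposited list of peaks with positions but no heights, so there was no spread between replicates and no test: intervals below are exact Clopper-Pearson 95% intervals over peaks and cover counting error only. The lists held 43618 to 213386 peaks after overlapping intervals were merged, and read depth is unknown. Shared interval coordinates fell into 3 sets, namely day 0 with the sorted cells, day 10, and unsorted day 12: pairs of lists from 1 set had identical start and end for 44.0% to 95.6% of the intervals of the shorter list, and pairs from different sets for 0.664% to 0.887%, so comparisons were made within sets only. As a check of the labels, the 10 fibroblast markers had 68 peaks in GFP+ cells and 173 on day 0 in the control arm, and the 10 pluripotency markers had 137 and 84. Peak lists do not measure the Ctcf or Smarca5 transcripts that the shRNAs target.

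Matrix metalloproteases are zinc enzymes that are made as inactive precursors and opened by other proteases. Collagenases cut fibrillar collagen, gelatinases cut the denatured strands, stromelysins cut a broad range of matrix proteins, and membrane-type enzymes act at the cell surface, where Mmp14 activates Mmp2 with the help of Timp2. Adamts enzymes trim procollagen, cleave proteoglycans such as versican and aggrecan, or act on single substrates, and the 4 Timps block both families to different degrees. Fibroblasts are a main source of these proteins, and AP-1, a dimer of Fos and Jun proteins, is a textbook activator of the inducible collagenase and stromelysin promoters.

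The start windows shown next were chosen to show gene starts with and without AP-1 letters, and with and without a peak. They run from 250 bases before to 50 bases after the gene start, 5′ to 3′ on the gene's strand, from RefSeq on GRCm38.p6. Such a window was found for 32 of the 46 members. Mmp3 (chr9:7445572-7445871), Mmp10 (chr9:7502092-7502391) and Mmp20 (chr9:7627981-7628280) hold AP-1 letters and had a peak in some lists. Mmp13 (chr9:7272264-7272563) and Mmp1a (chr9:7463891-7464190) hold the letters and had none. Mmp27 (chr9:7571146-7571445) lacks them and had a peak, and Mmp14 (chr14:54431348-54431647) lies outside the cluster. All 7 are on the plus strand, and capitals mark the letters TGANTCA (AP-1) or, in Mmp14, the core of the CTCF motif.
Mmp3: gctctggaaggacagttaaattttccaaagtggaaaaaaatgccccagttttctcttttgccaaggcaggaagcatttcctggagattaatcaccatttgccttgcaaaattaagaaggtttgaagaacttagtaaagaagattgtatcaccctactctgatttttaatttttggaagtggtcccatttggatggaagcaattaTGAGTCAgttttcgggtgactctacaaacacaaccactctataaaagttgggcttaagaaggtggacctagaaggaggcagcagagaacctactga
Mmp10: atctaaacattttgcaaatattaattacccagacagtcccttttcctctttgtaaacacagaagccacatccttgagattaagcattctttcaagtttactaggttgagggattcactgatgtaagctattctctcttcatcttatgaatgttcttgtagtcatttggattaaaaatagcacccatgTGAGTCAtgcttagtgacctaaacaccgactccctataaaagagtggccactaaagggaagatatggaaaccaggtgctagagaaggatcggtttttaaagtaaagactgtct
Mmp20: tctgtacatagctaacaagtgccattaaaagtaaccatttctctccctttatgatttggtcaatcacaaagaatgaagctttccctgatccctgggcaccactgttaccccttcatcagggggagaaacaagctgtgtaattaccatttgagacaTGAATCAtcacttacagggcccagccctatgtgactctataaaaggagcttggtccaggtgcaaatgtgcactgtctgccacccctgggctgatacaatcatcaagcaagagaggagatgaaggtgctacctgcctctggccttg
Mmp13: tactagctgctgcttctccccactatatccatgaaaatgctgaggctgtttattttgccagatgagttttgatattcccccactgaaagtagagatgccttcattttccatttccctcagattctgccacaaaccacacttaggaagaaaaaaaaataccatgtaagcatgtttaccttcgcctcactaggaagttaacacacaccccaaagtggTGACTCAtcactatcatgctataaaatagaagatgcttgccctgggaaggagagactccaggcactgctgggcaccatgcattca
Mmp1a: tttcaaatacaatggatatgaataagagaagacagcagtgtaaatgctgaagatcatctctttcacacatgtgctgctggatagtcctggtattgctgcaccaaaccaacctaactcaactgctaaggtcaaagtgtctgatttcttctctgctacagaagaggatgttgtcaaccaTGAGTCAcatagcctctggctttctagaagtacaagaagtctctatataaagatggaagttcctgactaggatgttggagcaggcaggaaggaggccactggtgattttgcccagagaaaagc
Mmp27: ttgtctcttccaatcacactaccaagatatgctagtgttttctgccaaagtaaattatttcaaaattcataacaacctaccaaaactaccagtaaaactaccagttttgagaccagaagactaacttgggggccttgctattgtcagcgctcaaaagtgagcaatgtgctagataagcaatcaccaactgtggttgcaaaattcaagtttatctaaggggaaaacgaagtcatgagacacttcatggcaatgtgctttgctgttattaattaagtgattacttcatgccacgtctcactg
Mmp14: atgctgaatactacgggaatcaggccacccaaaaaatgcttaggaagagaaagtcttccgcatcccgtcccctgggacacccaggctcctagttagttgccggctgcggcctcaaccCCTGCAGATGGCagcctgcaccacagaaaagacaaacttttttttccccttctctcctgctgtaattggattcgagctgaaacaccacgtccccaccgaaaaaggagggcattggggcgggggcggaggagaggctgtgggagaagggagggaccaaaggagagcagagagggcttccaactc

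Both motifs and TATAAA were searched on both strands. The AP-1 letters stood in the windows of 8 of the 10 genes of the Mmp cluster on chromosome 9 (Mmp1a, Mmp1b, Mmp3, Mmp7, Mmp10, Mmp12, Mmp13 and Mmp20) and of 0 of the 22 other members with a window, where 8.12% of all 17492 genes with a window had them. They began 35 bases before the start in Mmp13, 46 in Mmp3, 63 in Mmp10 and Mmp7, 73 in Mmp1a and 95 in Mmp20. TATAAA was found in 9 of the 10 cluster genes, against 14.8% of all genes. The CTCF letters were found in Mmp14 alone among the 32 members, against 11.3% of all genes. These are matches of letters in 300 bases. They are not evidence of binding.

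A smaller share of the cluster's genes than of the other members had a peak in these windows. The same share over all genes with a window was not counted. In the control arm, 22, 23, 20, 20 and 19 of the 32 members had a peak over the start window in day 0, Thy1+, SSEA1-Thy1-, SSEA1+ and GFP+ cells, of which 3, 4, 1, 1 and 0 were genes of the cluster. Mmp3, the stromelysin that also activates other Mmp precursors, and Mmp27 had a start peak on day 0 and in Thy1+ cells in both arms and in no other list. Mmp10, the second stromelysin of the cluster, had one in the same 4 lists and in SSEA1+ cells with CTCF shRNA, but not in SSEA1+ cells with control shRNA. Mmp20, the enamel protease, had none on day 0 and had one in all 6 lists of Thy1+, SSEA1-Thy1- and SSEA1+ cells and in GFP+ cells with CTCF shRNA, but not with control shRNA. No start window of the cluster held a peak in GFP+ control cells or in the day 10 and unsorted day 12 lists.

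The members kept a near-constant share of all open sites while fibroblasts became GFP+ cells, but different members lost and gained sites. In the control arm they had 647, 809, 609, 509 and 369 peaks for day 0, Thy1+, SSEA1-Thy1-, SSEA1+ and GFP+ cells, which was 0.420%, 0.416%, 0.403%, 0.375% and 0.404% of each list. The relative log2 used below is the log2 ratio of the members' peaks less the log2 ratio of the whole lists. It was -0.06 (95% interval -0.25 to 0.13) for GFP+ cells over day 0. Gene by gene (log2 of counts plus 1, at least 4 peaks in either list), a member was called higher or lower when it differed from the whole lists by 1.5-fold or more. That gave 11 of 46 members higher and 15 lower, where 44.2% of all genes tested were higher and 9.83% lower.

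**Figure D1:**
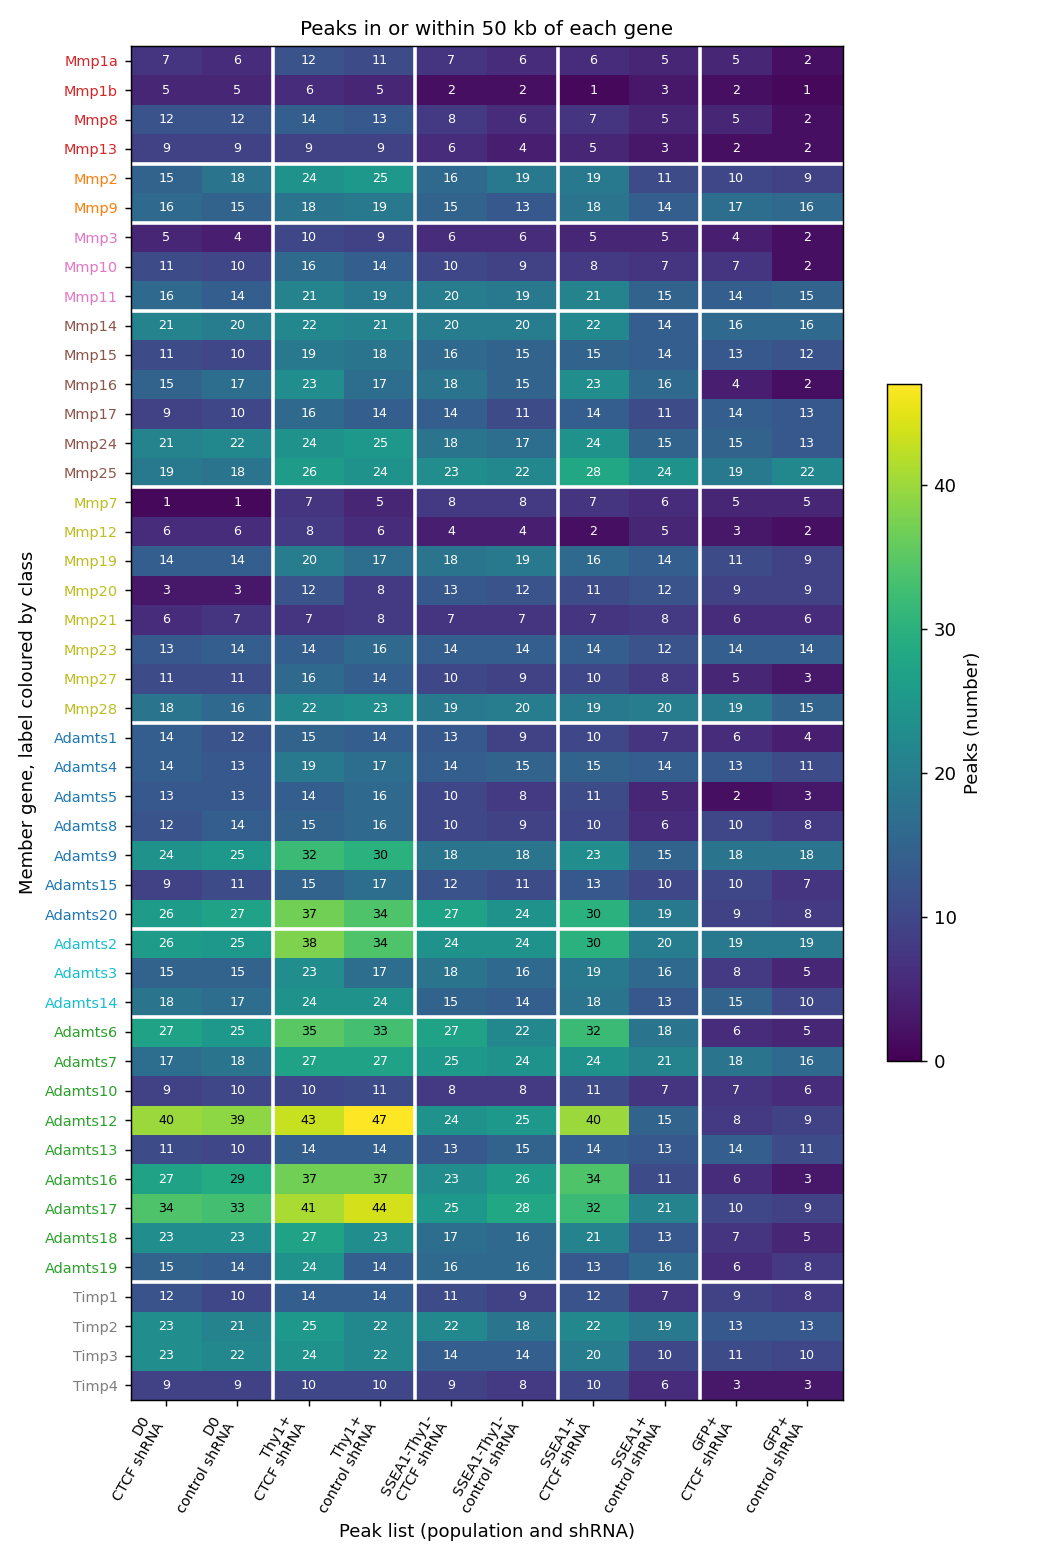
Peaks in or within 50 kb of each of the 46 genes (rows, coloured by class) in the 10 lists of day 0 and sorted cells (columns, CTCF shRNA left of control shRNA in each population); numbers are peaks. Adamts12 and Adamts16 had 40 and 34 peaks in SSEA1+ cells with CTCF shRNA, against 15 and 11 with control shRNA.

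The median member lay at 0.03 on this relative log2 scale and the median of all genes tested at 0.51. Set against the median gene in place of the whole lists, a choice made after the values were seen, the members' sum lay at -0.56, and 3 members were higher (Mmp7, Mmp20 and Mmp17) and 20 lower, against 12.4% and 21.3% of all genes. The second scale lowers every gene by the same 0.51, so no member called on the first scale could change sign on it. Of the member sites seen on day 0, 406 of 647 (62.8%) had no peak in GFP+ cells, against 67.6% of all day 0 sites.

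Collagenases had the lowest class value. Their 4 genes together had 7 peaks in GFP+ cells, against 29 on day 0 (relative log2 -1.30, interval -2.73 to -0.08). Mmp8, the neutrophil collagenase, had 2 peaks in GFP+ cells, against 12 on day 0, and Mmp13 had 2, against 9. Mmp1b had 1 in GFP+ cells and 5 on day 0, and all 3 were called lower, while Mmp1a had 2 and 6 and was within the fold. Mmp1a and Mmp1b are close copies of each other, and reads that fit both may have been placed on either. Membrane-type enzymes had 78 peaks in GFP+ cells, against 97 on day 0 (relative log2 0.44, interval -0.01 to 0.88), a value above that of the whole lists and just under that of the median gene (0.51). Mmp15, Mmp17 and Mmp25 were called higher with 12, 13 and 22 peaks in GFP+ cells, against 10, 10 and 18 on day 0, and of these only Mmp17 was past the fold against the median gene. Mmp16 went the other way, with 2 peaks in GFP+ cells and 17 on day 0 (relative log2 -1.83), in a gene of 264 kb. Mmp14 had 16 and 20 and was within the fold.

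The gelatinases differed from each other. Mmp9 had 16 peaks in GFP+ cells and 15 on day 0, which was higher relative to the lists (0.84), and Mmp2 had 9 and 18, which was within the fold (-0.17). Among the stromelysins, Mmp11, whose precursor is cut by furin inside the cell, was called higher with 15 and 14 peaks, Mmp10 lower with 2 and 10, and Mmp3 had 2 and 4. Mmp7, an epithelial matrilysin, and Mmp20 had the highest relative log2 of all members. Mmp7 had 5 peaks in GFP+ cells and 1 on day 0 (2.34), and Mmp20 had 9 and 3 (2.08). Every peak counted for Mmp7 in these lists was also counted for Mmp20, so they are not separate observations. Mmp7 had no peak within 10 kb of the gene in any list.

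Of the 19 Adamts genes, 9 were called lower and 2 higher, where 9.83% and 44.2% of all genes were. Most of the 9 lower ones are genes of 100 kb or more, which are given apart below. Of the 9 outside the proteoglycanases and the procollagen enzymes, 5 were called lower and 2 higher, and their sum was 72 peaks in GFP+ cells, against 201 on day 0 (relative log2 -0.73, interval -1.14 to -0.33). Adamts12, which cuts cartilage oligomeric matrix protein in humans, lies at chr15:11064773-11349232 and had 9 peaks in GFP+ cells, against 39 on day 0, the most of any member. Adamts16 (chr13:70727798-70841845) had 3 and 29 (-2.15), the lowest value of any member, and Adamts6 had 5 and 25. Adamts13, the protease of von Willebrand factor, had 11 and 10 and was called higher. Of the 7 proteoglycanases, Adamts1, Adamts5 and Adamts20 were lower, with 4, 3 and 8 peaks in GFP+ cells and 12, 13 and 27 on day 0. Of the procollagen enzymes only Adamts3 was called, with 5 and 15, while Adamts2 had 19 and 25. No Timp was called: Timp1 had 8 and 10, Timp2 13 and 21, Timp3, the inhibitor that binds the matrix and also blocks Adamts enzymes, 10 and 22, and Timp4 3 and 9. Against the median gene, Timp3, Timp4 and Mmp2 were past the fold.

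**Figure D2:**
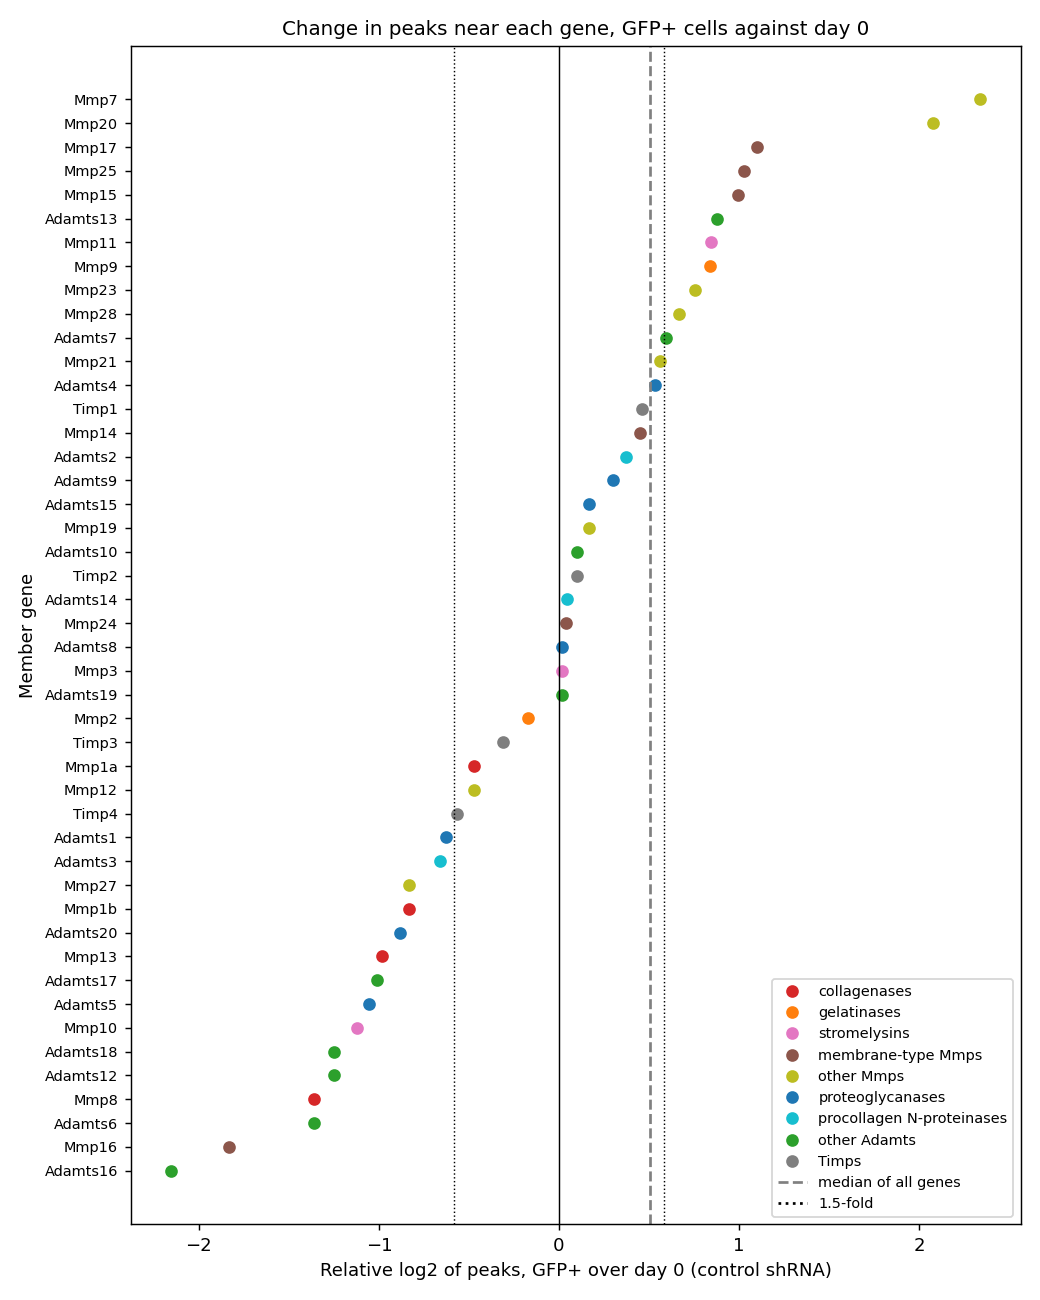
Relative log2 of peaks in GFP+ cells over day 0 (horizontal axis, control shRNA) for each of the 46 genes, coloured by class, with the 1.5-fold lines (dotted) and the median of all genes at 0.51 (dashed). Mmp7 and Mmp20, which share sites, lie highest at 2.34 and 2.08, and Adamts16 and Mmp16 lowest at -2.15 and -1.83.

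Long members had lower values than short ones, in a split chosen after the values were seen. The 11 members of 100 kb or more had 91 peaks in GFP+ cells and 272 on day 0 (relative log2 -0.83, interval -1.19 to -0.48), with 8 called lower and 0 higher. The other 35 had 278 and 375 (0.32, interval 0.09 to 0.55), with 7 lower and 11 higher. Among all genes of 100 kb or more, 29.5% were lower and 20.05% higher, with a median of -0.07. By position, 79.0% of the 248 day 0 peaks inside member genes had no peak in GFP+ cells, as had 65.0% of the 286 in the flanks but 29.6% (interval 17.98% to 43.6%) of the 54 within 1 kb of a member's end. Over all genes the shares were 71.1% inside genes, 76.5% between genes and 15.7% at gene ends. The flanks of members can include bodies of other genes, so the 65.0% and the 76.5% cover different kinds of position.

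Peaks within 1 kb of either end of the gene were counted for every member, so a gene-end peak need not lie at the start. Mmp8 and Mmp12, for example, had one on day 0 but none within 1 kb of the start. A gene-end peak was present for 31 members in GFP+ control cells (67.4%, against 66.1% of all genes) and 39 on day 0 (84.8%, against 66.1%). It was lost for 8 of those 39 (Mmp1b, Mmp3, Mmp8, Mmp10, Mmp12, Mmp27, Mmp19 and Adamts16), against 6.75% of all genes with one, and gained for 0 of the 7 without one, against 13.4%. The first 6 of these genes belong to the Mmp cluster. That cluster spans 427 kb at chr9:7272514-7699585 in the order Mmp13, Mmp12, Mmp1b, Mmp3, Mmp1a, Mmp10, Mmp8, Mmp27, Mmp20 and Mmp7.

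The cluster as a whole had 30, 42, 29, 26 and 14 peaks in day 0, Thy1+, SSEA1-Thy1-, SSEA1+ and GFP+ control cells. Its sides differed. From Mmp13 to the end of Mmp27 there were 27, 32, 15, 13 and 5 peaks in these lists, and beyond the end of Mmp27, around Mmp20 and Mmp7, there were 3, 10, 14, 13 and 9. The division at Mmp27 was chosen after the map was drawn. In the day 10 lists the collagenase and stromelysin side had 3 peaks with oeCTCF+shSmarca5, 0 with oeCTCF and 3 with oeControl, and the Mmp20 side had 4, 5 and 5.

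**Figure D3:**
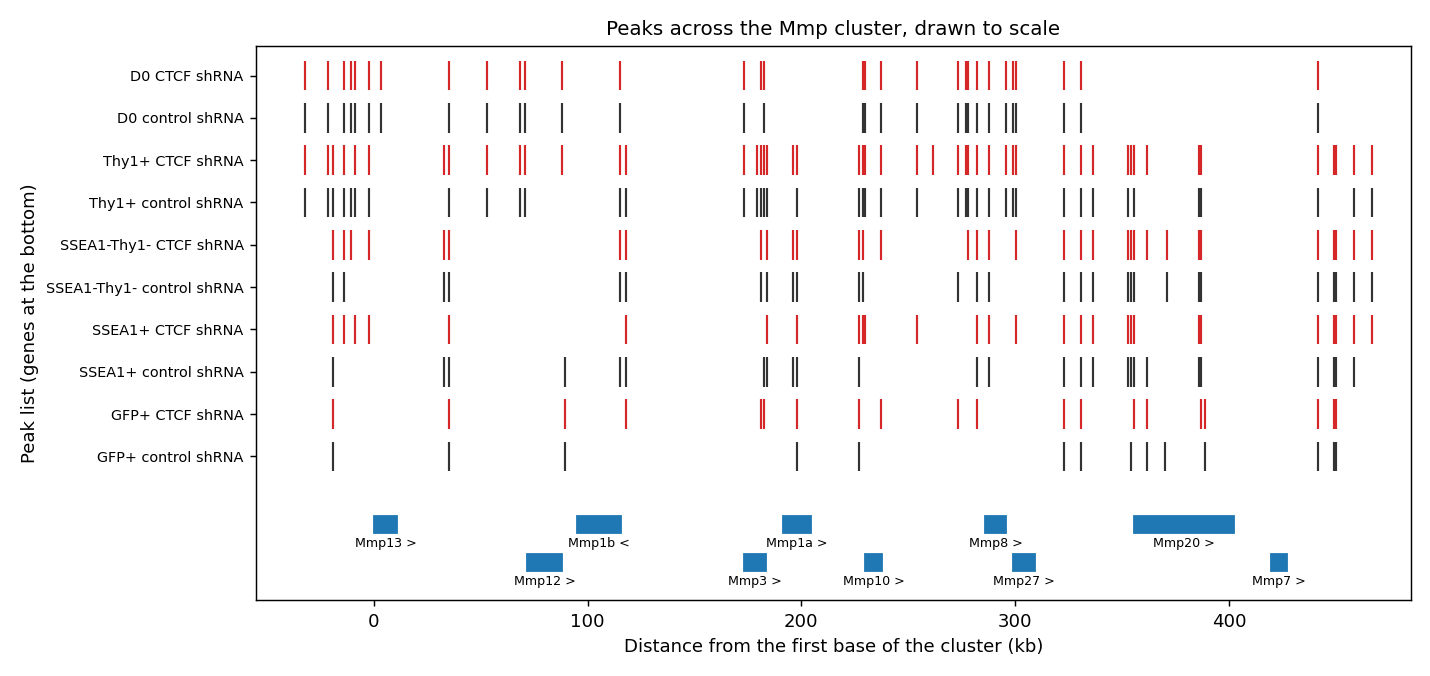
Peaks across the Mmp cluster (vertical ticks, distance in kb from its first base, to scale) in the 10 lists of day 0 and sorted cells, CTCF shRNA in red above control shRNA in black, with the 10 genes as boxes and arrows for strand. Left of the end of Mmp27 the control lists held 5 ticks in GFP+ cells and 27 on day 0; right of it they held 9 and 3.

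Most single steps moved few members. From day 0 to Thy1+ cells, 3 of 46 members were higher (3.55% of all genes) and 0 lower (2.02%). They were Mmp3, with 9 peaks in Thy1+ cells and 4 on day 0, Mmp20 with 8 and 3, and Mmp7 with 5 and 1. Mmp20 and Mmp7 share part of their sites in this step and the next. Gene-end peaks appeared at Mmp9 and Mmp20, 2 of the 7 members without one (9.98%), and left Mmp12, 1 of 39 (1.56%). From Thy1+ to SSEA1-Thy1- cells, Mmp7 and Mmp20 were higher (4.89%) and Mmp13, Mmp1b and Mmp8 lower (3.05%). Against the median gene the numbers were 2 higher and 5 lower, adding Adamts5 and Adamts12, where 1.51% and 5.44% of all genes were. Mmp8 and Mmp27 lost their gene-end peak, 2 of 40 (4.49%), and 0 of 6 gained one (5.12%).

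From SSEA1-Thy1- to SSEA1+ cells, Adamts16 alone was called lower of 45 members (0.894%), with 11 peaks in SSEA1+ cells and 26 in SSEA1-Thy1- cells, and 0 were higher (0.856%). On the median-gene scale 3 were lower (with Mmp2 and Adamts12 added; 1.65% of all genes) and 0 higher (0.507%). Mmp19 and Mmp10 lost their gene-end peak, 2 of 38 (2.99%), and 0 of 8 gained one (3.61%). The last step moved the most: from SSEA1+ to GFP+ cells 7 of 44 members were higher (20.7%) and 7 lower (8.62%), or 1 and 14 against the median gene (5.66% and 16.2% of all genes). Mmp9, Mmp14 and Timp1 were among the higher, with 16, 16 and 8 peaks in GFP+ cells and 14, 14 and 7 in SSEA1+ cells. Mmp16, Adamts6 and Adamts16 were among the lower, with 2, 5 and 3 in GFP+ cells and 16, 18 and 11 in SSEA1+ cells. Mmp1b, Mmp3, Mmp9, Mmp20 and Adamts16 lost their gene-end peak, 5 of 36 (4.58%), and 0 of 10 gained one (8.89%).

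Over the 5 control lists the members had 1001 distinct sites. Of these, 211 (21.1%) were open on day 0 and in Thy1+ cells only, against 19.8% of all sites. Another 205 (20.5%, interval 18.02% to 23.1%) were open in all 5 lists, against 16.1% of all sites, and 102 (10.2%) were open in the 3 sorted intermediates only, against 11.7%.

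CTCF shRNA left the members' summed share of open sites near that of the control in every population. The relative log2 of CTCF shRNA over control was 0.01 (interval -0.15 to 0.17) for fibroblasts, -0.06 (-0.20 to 0.08) for Thy1+, -0.05 (-0.22 to 0.11) for SSEA1-Thy1-, 0.07 (-0.10 to 0.23) for SSEA1+ and -0.02 (-0.23 to 0.18) for GFP+ cells. Every interval included 0, and the values averaged -0.01 ± 0.05 (SD, n = 5 pairs). Against the median gene the SSEA1+ value was 0.24 (interval 0.08 to 0.41), which excluded 0. The pairs are different populations and not replicates of 1 condition. Fibroblasts had 654 member peaks with CTCF shRNA and 647 with control shRNA, Thy1+ cells had 853 and 809, SSEA1-Thy1- cells had 636 and 609, SSEA1+ cells had 722 and 509, and GFP+ cells had 411 and 369.

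**Figure D4:**
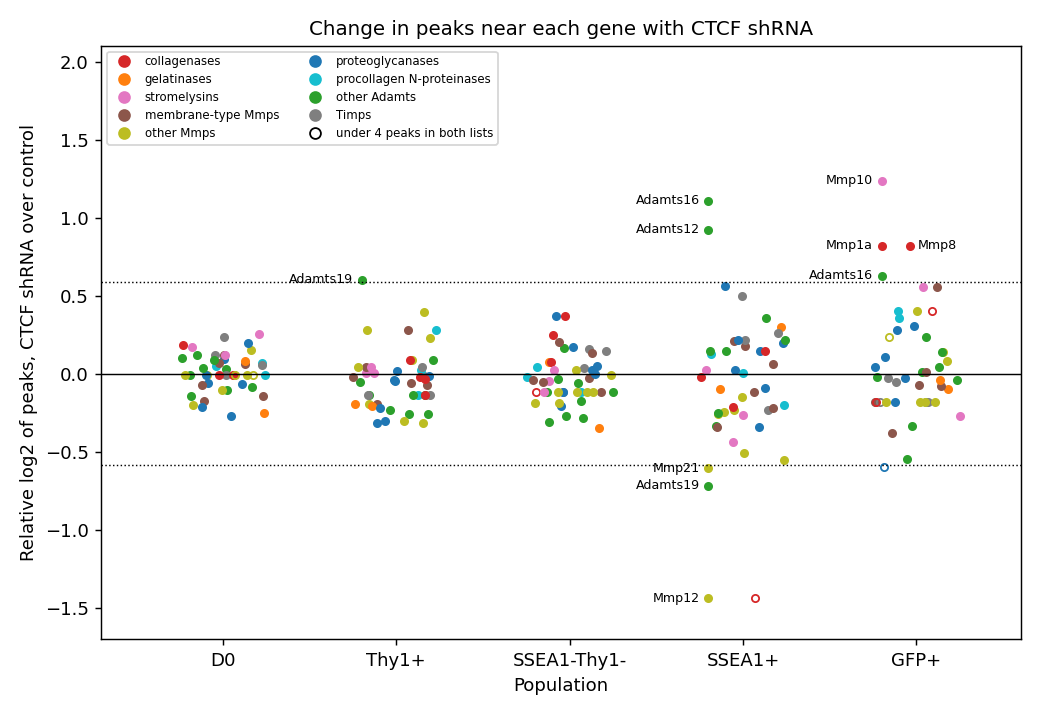
Relative log2 of peaks with CTCF shRNA over control shRNA (vertical axis) for each of the 46 genes in each population, coloured by class, with the 1.5-fold lines dotted and genes under 4 peaks in both lists as open circles; points are spread sideways to separate them. Named genes passed the fold, from Mmp12 at -1.44 in SSEA1+ cells to Mmp10 at 1.24 in GFP+ cells.

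On day 0 no member of 44 passed the fold in either direction (0.0494% of all genes higher and 0.0989% lower). Adamts16 and Mmp23 lacked the gene-end peak that they had with control shRNA, 2 of 39 members (1.29%), and 0 of 7 gained one (1.93%). Followed through every comparison were 14 genes: Mmp2, Mmp3, Mmp9, Mmp10, Mmp13, Mmp14, Mmp16, Adamts1, Adamts2, Adamts5, Adamts12 and Timp1 to Timp3. Among them the largest day 0 differences were those of Mmp2, with 15 peaks with CTCF shRNA and 18 with control shRNA (-0.25), and Mmp3, with 5 and 4 (0.26); among all members Adamts15 lay lower, with 9 and 11 (-0.27). Of the 128 member sites that open between day 0 and GFP+ cells in the control arm, 18 (14.1%, interval 8.55% to 21.3%) had a peak on day 0 with CTCF shRNA, against 6.45% of all opening sites. By definition none had one with control shRNA, so this share shows no difference between the arms. Of 40 member peaks seen on day 0 only with CTCF shRNA, 18 (45.0%, against 35.7% of all such peaks) were open in GFP+ control cells. Of 33 seen only with control shRNA, 13 were (39.4%, against 38.9%). The 18 opening sites lay near 12 members, among them Adamts2 with 3 sites, and Mmp9, Mmp11, Mmp14 and Mmp25 with 2 each.

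In Thy1+ cells, Adamts19 (chr18:58835992-59053682) was the only one of 46 members past the fold, with 24 peaks with CTCF shRNA and 14 with control shRNA (relative log2 0.60; 0.812% of all genes higher, 0.35% lower). Mmp12, the macrophage elastase, gained a gene-end peak, 1 of the 6 without one (6.8%), and 0 of 40 lost one (1.26%). Of the 406 member sites that close between day 0 and GFP+ cells, 325 (80.0%, interval 75.8% to 83.8%) had a peak with CTCF shRNA and 353 (86.9%, interval 83.3% to 90.1%) with control shRNA; over all closing sites the shares were 75.6% and 79.5%. In SSEA1-Thy1- cells no member of 45 passed the fold (0.738% higher, 0.347% lower), and gene-end peaks were gained by 0 of 8 (5.23%) and lost by 0 of 38 (1.64%). The same 14 genes lay between -0.31 (Adamts5, with 14 and 16 peaks) and 0.28 (Mmp16, with 23 and 17) in Thy1+ cells. In SSEA1-Thy1- cells they lay between -0.35 (Mmp2, with 16 and 19) and 0.37 (Adamts1 with 13 and 9, and Mmp13 with 6 and 4).

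SSEA1+ cells differed most between the arms. Of the 406 closing member sites, 244 (60.1%, interval 55.2% to 64.9%) had a peak with CTCF shRNA and 55 (13.5%, interval 10.4% to 17.3%) with control shRNA. All closing sites behaved alike, with 55.6% and 15.1%, so this was not particular to the members. The CTCF shRNA list was also the longer one, with 183640 peaks and 135749 in the control list. In the Mmp cluster 9 of 26 closing sites (34.6%, interval 17.2% to 55.7%) had a peak with CTCF shRNA and 4 of 26 with control shRNA, and in the members outside it 235 of 380 (61.8%, interval 56.7% to 66.7%) and 51 of 380. Of the opening member sites, 72 of 128 (56.3%) had a peak with CTCF shRNA and 81 of 128 (63.3%) with control shRNA, against 61.0% and 64.1% of all opening sites.

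**Figure D5:**
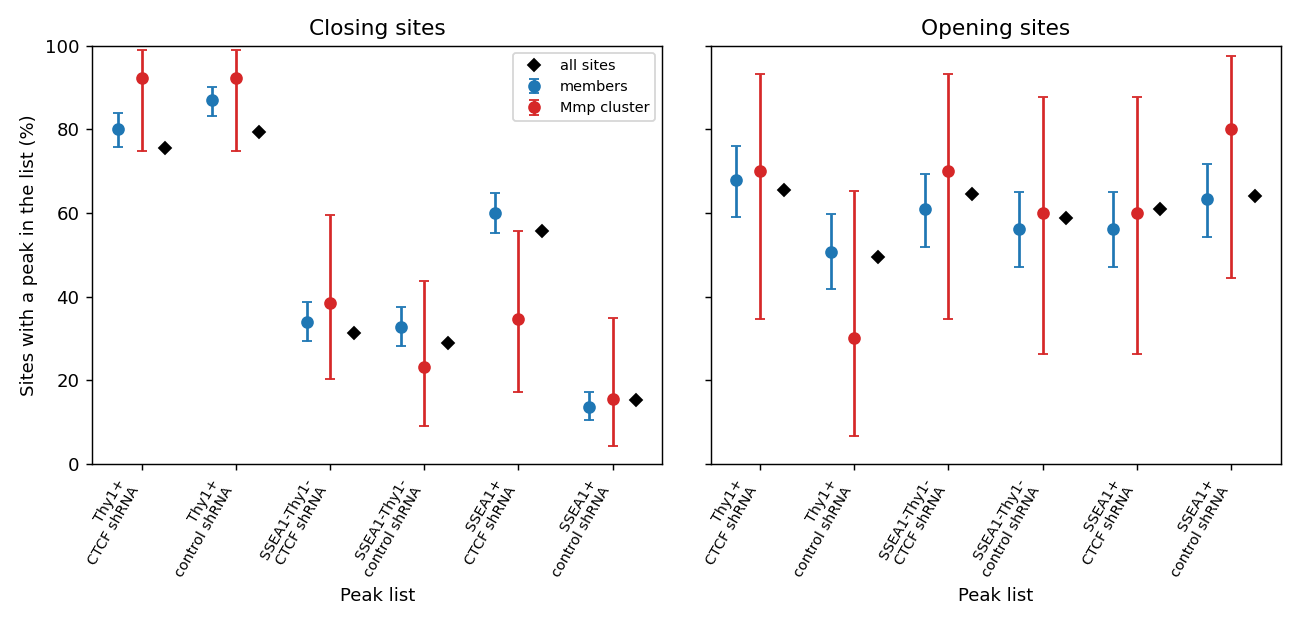
Share of closing (left) and opening (right) sites that had a peak in each list of sorted intermediates, for sites near the 46 members (blue), in the Mmp cluster (red) and over all sites (black diamonds), with exact 95% binomial intervals over sites. In SSEA1+ cells 60.1% of closing member sites had a peak with CTCF shRNA and 13.5% with control shRNA.

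Adamts12 had the most closing sites of any member. It had 40 peaks in SSEA1+ cells with CTCF shRNA and 15 with control shRNA (relative log2 0.92), where day 0 had 40 and 39. Of its 32 closing sites 21 had a peak with CTCF shRNA and 2 with control shRNA. Adamts16 had 34 and 11 peaks (1.11), and 26 and 5 of its 28 closing sites, the most held with CTCF shRNA. These were the only 2 of 45 members called higher (2.2%). Adamts19 with 13 and 16 peaks, Mmp21 with 7 and 8 and Mmp12 with 2 and 5 were called lower (3.32%). Against the median gene, which lay at -0.17, 4 were higher (with Adamts5 and Timp3 added; 5.40% of all genes) and 1 lower (Mmp12; 0.495%). Other members were within the fold of the whole lists while holding closing sites: Timp3 had 8 of 14 with CTCF shRNA and 0 of 14 with control shRNA, Adamts2 10 and 1 of 15, Mmp2 8 and 1 of 11, and Mmp16 9 and 1 of 16.

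The 259 member peaks seen with CTCF shRNA and not with control shRNA in SSEA1+ cells were largely earlier sites. Of them 84.2% were open on day 0 and 91.9% in Thy1+ cells of the control arm, against 81.6% and 88.9% of all such peaks. Gene-end peaks were gained at Mmp19 and Mmp10, 2 of the 10 members without one (9.16%), and lost at Mmp1b, 1 of 36 (1.61%). Fibroblast markers moved with these values: all 10 together had 175 peaks with CTCF shRNA and 97 with control shRNA (relative log2 0.42, interval 0.05 to 0.79), with a gene-end peak at 9 and 7 of them. The 10 pluripotency markers had 128 and 121 (relative log2 -0.35, interval -0.72 to 0.02) and the 5 epithelial markers 83 and 73 (-0.25, interval -0.72 to 0.22), both lower relative to the whole lists with intervals that include 0. The median gene lay at -0.17 in this pair. Every marker list therefore stood higher against the median gene than against the whole lists. The 6 haematopoietic markers had 92 and 61 (0.16) and the 5 endothelial markers 97 and 69 (0.06), with Ptprc and Pecam1 lacking a gene-end peak in both arms. Whether a different mix of cells or fewer open sites per cell underlies the members' values cannot be told apart in bulk lists, and the part of these markers in the result was not tested.

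In GFP+ cells 4 of 41 members were called higher with CTCF shRNA (2.11%) and 0 lower (2.19%), and all but Adamts16 lie in the Mmp cluster. With Mmp3 and Mmp16 added, 6 were higher against the median gene (3.24% of all genes). Mmp10 had 7 peaks with CTCF shRNA and 2 with control shRNA (relative log2 1.24), Mmp1a and Mmp8 each had 5 and 2 (0.82), and Adamts16 had 6 and 3 (0.63). The cluster's sum was 20 and 14 peaks, of which 11 and 5 lay between Mmp13 and Mmp27 and 9 and 9 around Mmp20 and Mmp7. Gene-end peaks were gained at Adamts16, Mmp3, Mmp10 and Mmp20, 4 of the 15 members without one (4.79%), and lost by 0 of 31 (1.73%). At Mmp3 and Mmp10 the gained peak was not within 1 kb of the gene start. These calls rest on single-digit counts from 1 list an arm. Neighbouring cluster genes share sites, so the 3 cluster genes are not separate observations. The fibroblast markers had 85 and 68 peaks in these lists, and the pluripotency markers 139 and 137. Their part in the result was not tested.

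The genes of the surface activation of Mmp2 were within the fold in all 5 pairs. Mmp14, its activator, had 21 peaks with CTCF shRNA and 20 with control shRNA on day 0, and Thy1+ cells had 22 and 21. SSEA1-Thy1- cells had 20 and 20 peaks near Mmp14, SSEA1+ cells 22 and 14, and GFP+ cells 16 and 16. Near Mmp2 itself SSEA1+ cells had 19 and 11 and GFP+ cells 10 and 9, and near Timp2, the inhibitor that bridges them, 22 and 19 for SSEA1+ cells, 13 and 13 for GFP+ cells. All 3 had a relative log2 between -0.35 and 0.30 over the pairs.

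Few sites differed in the same direction across populations. Of 1034 member sites in the 10 lists, 9 were gained with CTCF shRNA in 3 of the 5 pairs and 0 in more, and 3 were lost in 3 pairs and 0 in more. Over all 267322 sites, 3229 were gained and 547 lost in 3 pairs or more. The 3 lost sites were at chr7:133673001-133673400 beside the end of Mmp21, at chr13:104445445-104445844 inside Adamts6 and at chr16:85899040-85899439 inside Adamts5. This Adamts5 site lies near the gene's boundary of higher coordinate, and no start window was found for Adamts5. It was gained in SSEA1+ cells. Gained sites included chr10:86290129-86290528 upstream of Timp3, on the plus strand, and chrX:20863468-20863867 upstream of Timp1, also on the plus strand.

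The day 10 lists were shorter and had 274 member peaks with oeCTCF+shSmarca5, 306 with oeCTCF and 293 with oeControl. With oeCTCF over oeControl the members' relative log2 was 0.16 (interval -0.07 to 0.40). Adamts12 alone was called higher of 33 members (2.07%), with 5 peaks and 3, and 0 were lower (2.19%), or 1 (Adamts16, with 5 and 8; 4.31% of all genes) against the median gene. Adamts12 also gained a gene-end peak, 1 of the 16 members without one (3.68%), and 0 of 30 lost one (1.55%). With oeCTCF+shSmarca5 over oeCTCF the relative log2 was -0.13 (interval -0.37 to 0.11). Adamts14, a procollagen N-proteinase, was called lower of 33 members (4.59%), with 6 peaks and 11, and 0 were higher (2.79%). With the median gene as the base 3 were lower (Adamts12 and Mmp20 added; 6.48% of all genes). The Mmp cluster was nearly empty in these lists, with Mmp13 at 2, 0 and 2 peaks and Mmp3 and Mmp10 at 1, 0 and 1 each with oeCTCF+shSmarca5, oeCTCF and oeControl, under the minimum for a call. Mmp14 had 13, 17 and 16 and Mmp9 12, 16 and 12. The gene-end peak was absent at Adamts12 and Adamts19, 2 of 31 (4.58%), and 0 of 15 gained one (2.04%).

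With oeCTCF+shSmarca5 over oeControl the relative log2 was 0.03 (interval -0.21 to 0.27). Adamts16 was called lower of 31 members (3.57%), with 4 peaks and 8, and 0 were higher (1.47%). Both Adamts16 and Mmp20 were lower against the median gene (6.28% of all genes). Adamts19 lost its gene-end peak, 1 of 30 (3.86%), and 0 of 16 gained one (1.73%). The 3 comparisons share lists, so they are not independent of each other. In unsorted day 12 cells the members had 225 peaks with Smarca5 shRNA and 226 with control shRNA (relative log2 -0.03, interval -0.30 to 0.24). No member of 28 passed the fold (0.366% higher, 0.515% lower), and no gene-end peak was gained by 16 members (1.08%) or lost by 30 (1.14%). Timp3 had 10 and 7 peaks (0.44), Mmp2 had 7 and 8, and Mmp9, Mmp14, Adamts2, Adamts12 and Timp2 each had the same number in both lists, between 6 and 12.

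The 44 other genes of matrix proteolysis that were listed (Adam proteases, Adamts-like proteins, activators, receptors and inhibitors, astacin and cysteine proteases, and substrates) were counted in the same way. In GFP+ cells over day 0, 10 of the 43 with enough peaks were higher (23.3%, against 44.2% of all genes) and 9 lower (20.9%, against 9.83%). Of the 10 substrates 4 were higher (Acan, Bcan, Ncan and Vwf), a share near that of all genes, while Vcan, the gene of versican, had 8 and 14 peaks and was not called. Also among the higher were Plaur, the urokinase receptor, and Bsg, the Mmp inducer basigin. Plau, the urokinase that activates plasminogen, Cd44, a docking site of Mmp9, Fbn1, which encodes fibrillin, and Fap were among the lower. With CTCF shRNA in SSEA1+ cells, Plau, Cd44 and Adamtsl3 were called higher, 3 of 43 (6.98%, against 2.2% of all genes), and Bsg lower, 1 of 43 (2.33%, against 3.32%). On day 0 and in Thy1+ and SSEA1-Thy1- cells 0 of 43 were called, and in GFP+ cells Ctsk, the collagen-cutting cathepsin K, was called lower of 42.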

How the data were processed

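The ATAC-seq samples were compared as 1 peak list per group. Per the submitters' processing notes the tools were MACS2, Bowtie2, Picard, SAMtools, cutadapt, Trim Galore and FastQC, with mm10/GRCm38; roles, versions, thresholds and the way samples were combined were not given in the sources used here. Lists deposited by the authors hold 400 bp intervals with no usable score, so a weak and a strong site count alike. The value used is therefore a number of positions. It is not a read count, a signal or a fold.

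Overlapping intervals of a list were merged, and a site shared by 2 lists overlapped by 1 bp or more. Exact Clopper-Pearson 95% intervals cover counting error only. Members and comparison lists were chosen with earlier results of these data known. Genes were named by 3 rules: 14 genes in every comparison, up to 10 members with the largest difference past the fold, and members with a gene-end peak in 1 list only; others, named for context, were chosen after their values were seen. The call rule was run on a simulated list, made from 1 real list by adding or removing peaks near chosen genes. Those changes were larger than 1.5-fold, and genes away from them kept identical peaks. The run therefore gives no error rate for calls between 2 real lists. Start windows came from a RefSeq promoter table, and a search for motifs in the peaks was not run, since no genome sequence was used here. Python 3.11.15, NumPy 2.4.6, SciPy 1.17.1 and matplotlib 3.10.9 were used. Alternatives covered the window, merging, fold, pseudocount, minimum, gene-end distance and scaling.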

Additional observations from a re-analysis of the deposited data

Results flagged for a closer look

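Of 31 sets of 4 or 5 pairs of lists examined for a pair that stands apart from the others, 6 had one. A pair was flagged when its gap to the nearest value, as a share of the range, passed Dixon's cutoff for outliers. The pairs are different populations, so this was used to pick values to look at and not as a test. The sets share sites, and some genes, Mmp12 among them, were examined because they had passed the fold in these same pairs. The 6 can therefore not be set against a chance rate. In the closing sites near members, the difference between CTCF shRNA and control shRNA was 46.6 percentage points in SSEA1+ cells, apart from those on day 0 and in the other 2 intermediates. By definition every closing site had a peak on day 0 with control shRNA, so the day 0 difference could not be positive. All closing sites behaved alike in SSEA1+ cells, as given above, so this was not particular to the members. The relative log2 of Adamts12 (0.92) and of Timp3 (0.50) in SSEA1+ cells stood above the other populations, and that of Mmp12 (-1.44), from 2 peaks with CTCF shRNA and 5 with control shRNA, stood below them. In GFP+ cells Mmp10 (1.24) stood above, and the membrane-type Mmps (-0.13, interval -0.59 to 0.34) stood below.

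Relative to the whole lists, Adamts19 was called in opposite directions in 2 populations. It was higher with CTCF shRNA in Thy1+ cells (24 and 14 peaks) and lower in SSEA1+ cells (13 and 16 peaks), a difference of 1.32 in relative log2 that was not tested. Against the median gene the Thy1+ value was 0.64 and the SSEA1+ value -0.54, which was within the fold. Without peaks near ends of other genes, no member was called higher in Thy1+ cells.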

How the results depend on the processing

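A change of direction was scored only for a sum or mean whose interval or SD range excluded 0 on the main settings. No such value did, so the alternatives could not show a reversal. Leaving out a pair moved the mean over the CTCF shRNA pairs between -0.03 and 0.000112. No paired analysis was possible because each group had 1 pooled list, in which replicates cannot be told apart, so no replicate could be left out either. Not merging intervals, autosomes alone and an overlap of 200 bp left every value within its interval and every count within 1.5 times. With a 20 kb window, members past the fold numbered 1 lower in Thy1+, 1 higher in SSEA1-Thy1-, 6 higher in SSEA1+, 0 higher and 1 lower in GFP+, 0 higher and 1 lower for oeCTCF, and 2 lower for oeCTCF+shSmarca5 over oeCTCF. With 100 kb they were 1 lower in GFP+, 0 higher for oeCTCF and 1 higher for oeCTCF+shSmarca5. Without peaks near ends of other genes they were 0 higher in Thy1+, 2 higher for oeCTCF and 2 lower for oeCTCF+shSmarca5; without the Mmp cluster, 1 higher in GFP+. A fold of 2 left 4 higher and 9 lower for GFP+ over day 0, 1 higher and 1 lower in SSEA1+, 1 higher in GFP+, and 0 in Thy1+ and both day 10 comparisons. A pseudocount of 0.5 gave 3 lower for oeCTCF+shSmarca5. No minimum gave 1 lower in GFP+, 5 lower for oeCTCF, 5 higher for oeCTCF+shSmarca5 and 1 lower on day 12; a minimum of 8 peaks gave 0 higher in GFP+ and for oeCTCF. Gene-end peaks within 2.5 kb gave 1 gained for GFP+ over day 0, 0 lost on day 0, 0 gained in Thy1+, 2 gained in SSEA1-Thy1-, 2 lost in SSEA1+ and 2 gained in GFP+. At gene starts alone there were 4 lost for GFP+ over day 0, 0 lost on day 0, 0 gained in Thy1+, 1 gained in SSEA1+, 1 gained in GFP+ and 1 lost for oeCTCF+shSmarca5; the start is known for 32 members only. Against the median gene, chosen after seeing the data, the relative log2 was -0.56 for GFP+ over day 0, -0.21 for SSEA1-Thy1- over Thy1+, -0.20 for GFP+ over SSEA1+, 0.24 for the SSEA1+ pair and 0.055 for the mean over pairs; the counts were 3 higher for GFP+ over day 0, 4 higher and 1 lower in SSEA1+, 1 lower for oeCTCF and 3 lower for oeCTCF+shSmarca5. The cause was not tested. Lists without read depth cannot show whether a missing peak is a closed site or a shallow library.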
